A study of Mus musculus with 19 samples.

Results

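Cold was compared with room temperature in brown adipose tissue (BAT) of old mice, across all genes of the deposited expression table. The comparison rested on 9 of the 19 libraries of the series, 4 from mice kept at 4°C and 5 from mice kept at 24°C. All were wild type C57BL6J males of 24 months, housed singly and without food or bedding while exposed, and the treatment protocol gives 5 hr of exposure where the design text gives 24 hr. The remaining 10 libraries came from young mice of 3 months (5 cold, 5 room temperature). They are used for the difference in response between ages, the scale of relative depth and an alternative fit of all 19 libraries. Values are log2(TPM + 1) (TPM, a read share corrected for transcript length), so that a difference of 1 is a doubling of TPM + 1. Where values are listed by library they follow the replicate numbers, 1 to 4 for cold and 1 to 5 for room temperature. The study's methods describe the young libraries as coming from 5 mice per group. For the old libraries neither the labels nor the methods say that replicates were separate mice, so their p-values measure only the spread between these libraries, which may be technical.

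BAT burns fuel to make heat. In the cold, sympathetic nerves release norepinephrine, which acts through β3-adrenergic receptors to raise cAMP and activate protein kinase A. Lipolysis follows within minutes, and a wave of transcription within hours, through factors such as CREB and the coactivator PGC-1α (Ppargc1a). UCP1, the protein that uncouples mitochondrial respiration from ATP synthesis, carries the heat production itself. With age BAT is known to lose thermogenic capacity, and the question was which of its genes still respond to the cold at 24 months.

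Several genes that rose in the cold carry short known elements in the promoter, and 6 that are described below are shown. Each window of 60 bases lies before the transcription start on GRCm38.p6 (RefSeq), is read on the strand of the gene, and has the matched letters in capitals. Dio2 (chr12:90739100-90739159, minus strand) and Dusp1 (chr17:26508582-26508641, minus strand) hold the cAMP response element TGACGTCA, starting 95 and 143 bases before the start. Atf3 (chr1:191183410-191183469, minus strand), Chac1 (chr2:119351023-119351082, plus strand) and Got1 (chr19:43524674-43524733, minus strand) hold the C/EBP-ATF response element TGATGNAA, read on the opposite strand as TTGCATCA, at 110, 193 and 102 bases. Hspe1 (chr1:55088035-55088094, plus strand) holds a heat shock element, the units GAA, TTC and GAA set 2 bases apart or their reverse complement, at 89 bases.
Dio2: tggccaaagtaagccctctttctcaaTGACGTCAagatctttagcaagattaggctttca
Dusp1: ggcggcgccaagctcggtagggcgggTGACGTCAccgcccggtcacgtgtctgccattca
Atf3: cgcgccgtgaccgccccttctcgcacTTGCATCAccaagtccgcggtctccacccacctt
Chac1: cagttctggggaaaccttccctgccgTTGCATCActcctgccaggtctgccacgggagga
Got1: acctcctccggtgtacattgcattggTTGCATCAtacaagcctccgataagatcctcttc
Hspe1: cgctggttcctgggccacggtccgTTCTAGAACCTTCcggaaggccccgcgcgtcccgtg

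In windows from 250 bases before to 50 after the start, on both strands, TGACGTCA was found for 387 of 12439 tested genes with a promoter entry (3.11%), for 5 of 69 genes higher in the cold (7.25%) and for 0 of 109 genes lower. The 5 were Dio2, Dusp1, Dusp8, Gm16062 and Tra2a, and Ppargc1a, Crem, Nr4a1, Nr4a2 and Nr4a3 were not among them. TGATGNAA was found for 3.01% of tested genes, 3 of 69 higher genes and 4 of 109 lower genes. The heat shock element was found for 0.579% of tested genes, 1 of 69 higher genes and 0 of 109 lower genes. The elements were chosen after the values were seen, and a match is a description of the sequence only.

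The libraries differed in ways that the groups do not explain. The predicted gene Gm20594, whose log2 value of 13 divides 2 kinds of library, stood between 35798 and 40829 TPM in 6 old libraries and under the divide in cold replicates 1 and 2 and room temperature replicate 1. Relative depth, taken from what a read is worth in each library and set to 100% in the deepest of the 19, ran from 13.5% to 33.9% in the cold and from 6.98% to 62.7% at room temperature (exact two-sided permutation p = 0.841 between the groups). Cold replicate 4 stood apart. It had the fewest genes detected (11634, against 12156 to 14754 in the other 8), the lowest sum of TPM over the listed genes (128942) and a median log2 value of 1.14 over genes detected in all old libraries, where the others stood between 1.75 and 2.26. It held the lowest value of all 9 libraries for 51.6% of the 15833 genes tested. List counts below are therefore given with and without this library.

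Principal components placed cold replicate 4 alone at the far end of the first axis and parted the temperatures on the second. The first component (48.3% of the variance) ran from cold replicate 1 at -45.3 to cold replicate 4 at 74.0, while those at room temperature ran from -21.3 to 21.0. It also parted the kinds of library. Libraries with a Gm20594 log2 value under 13 scored -45.3, -30.3 and -21.3, and the others scored -10.2 or above. On the second component (19.4%) cold libraries scored 15.2 to 27.0 and room temperature ones -21.4 to -13.6, with no overlap. The mean Euclidean distance was 80.4 between cold libraries, 50.45 between room temperature libraries and 72.2 across temperatures. A pseudo-F of 1.65 for the split by temperature did not pass an exact one-sided permutation test over all labelings (p = 0.135, smallest possible 0.00794). Without cold replicate 4 the mean distance between cold libraries was 58.3, and the pseudo-F was 2.76 (exact p = 0.0357 over 56 labelings).

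**Figure D1:**
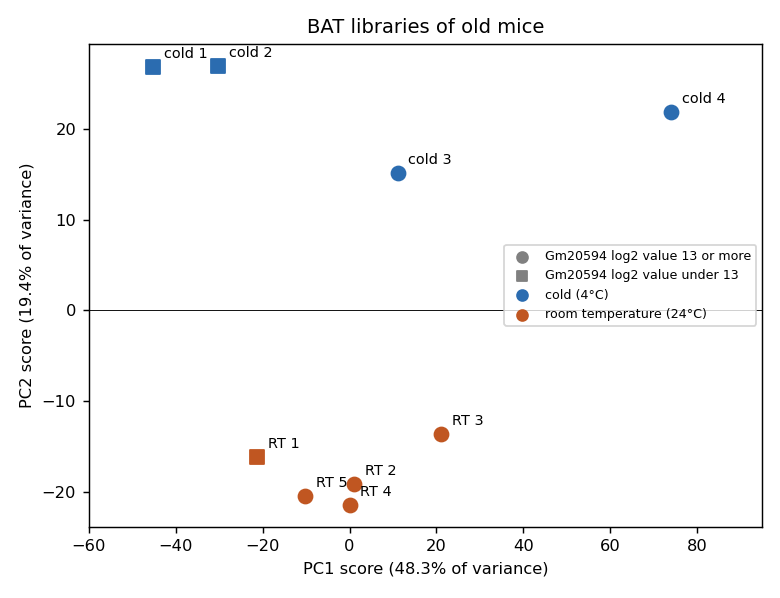
Scores of the 9 BAT libraries of old mice on the first 2 principal components of the log2(TPM + 1) values, with 48.3% and 19.4% of the variance on the horizontal and vertical axis. Blue marks cold and orange room temperature, squares mark libraries with a Gm20594 log2 value under 13, and a reader should see that temperature separates the libraries on the vertical axis while cold replicate 4 lies alone at the right at 74.0.

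Of 15833 genes above 0 in an old library, 81 were higher in the cold (0.512% of those tested) and 146 were lower (0.922%) at an adjusted p under 0.25, by limma with Benjamini-Hochberg adjustment. At an adjusted p under 0.05 there were 3 higher genes, Ppargc1a, Nr4a3 and Atf3, and 1 lower gene, Pik3r1. The median log2 fold change was 1.47 among the higher genes and -0.78 among the lower genes, beside -0.03 for all genes tested. The groups did not overlap for 76 of 81 genes that rose and 138 of 146 that fell. Over all genes tested they did not overlap for 142 with a higher level in the cold (0.897%) and 358 with a lower level (2.26%). List counts at an unadjusted p under 0.05 below stand beside 389 higher and 989 lower genes of all 15833 (limma).

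These counts depended on the libraries. Without cold replicate 4, 1255 genes were higher (7.94% of those tested) and 400 lower (2.53%), among them all 81 and all 146 of the first fit. With library kind added as covariate, 216 were higher (1.36%) and 1462 lower (9.23%), again with all 81 and all 146 among them. With both, 757 were higher and 640 lower. Leaving out any other library gave between 32 (without room temperature replicate 2) and 94 (without room temperature replicate 3) higher genes, and between 38 and 341 lower genes, again without room temperature replicates 2 and 3. Of the called genes, 27 higher and 25 lower ones were called in each of the 9 fits that left out a library. Centring each library on its median moved the median of all genes from -0.03 to 0.09 and the split from 81 higher and 146 lower to 985 and 523, with 80 of the 81 and 100 of the 146 among these.

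**Figure D2:**
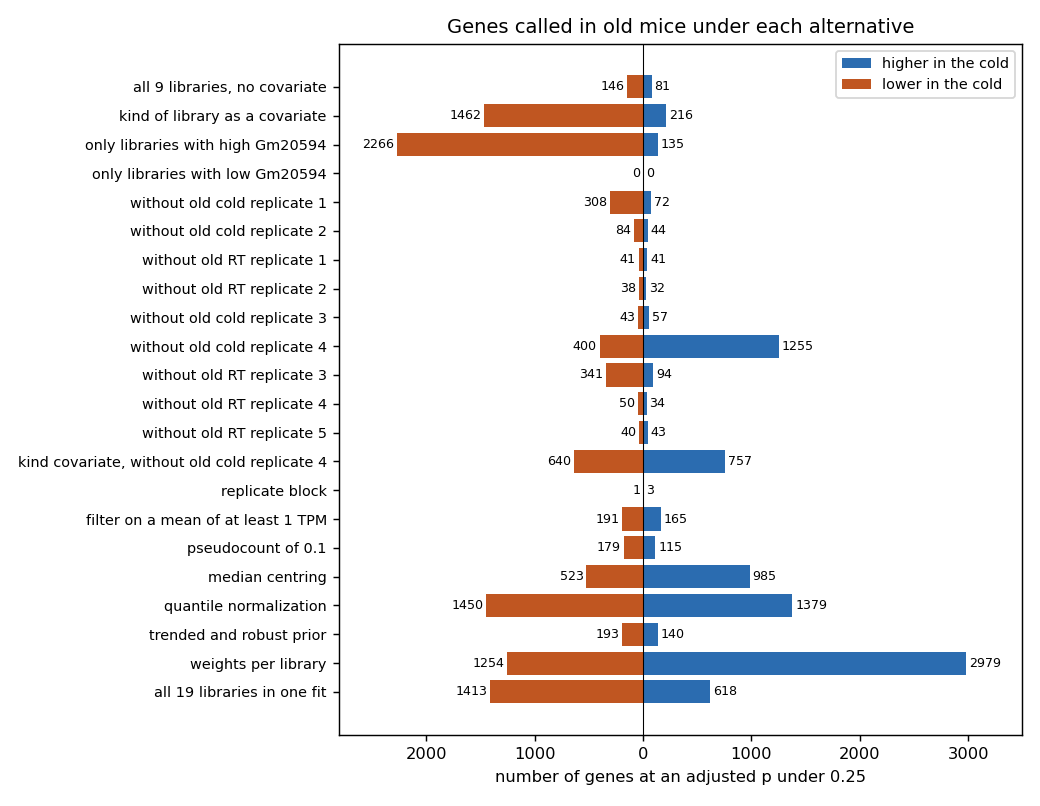
Number of genes higher (blue, to the right) and lower (orange, to the left) in the cold in old mice at an adjusted p under 0.25, for the fit of all 9 libraries (81 and 146) and for each alternative. Higher counts run from 0 with only low-Gm20594 libraries to 2979 with weights per library and lower counts from 0 to 2266 with only high-Gm20594 libraries, and higher genes outnumber lower ones when cold replicate 4 is left out (1255 and 400).

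Of 16 genes of the thermogenic programme tested, 2 rose, 1 fell and 13 did not pass the test, with a median log2 fold change of 0.24 beside -0.03 for all genes; without cold replicate 4, 6 were higher and 2 lower. Ppargc1a, the coactivator that drives mitochondrial and thermogenic genes, stood at 7.09, 7.67, 7.17 and 6.18 in the cold and at 3.37, 3.17, 2.26, 3.24 and 2.84 at room temperature. Every cold library lay far above every room temperature library, by 4.05 ± 0.33 (SE) on the log2 scale or 16.6-fold (adjusted p = 0.0105, limma), the largest rise of all genes called. Dio2, the deiodinase that makes active thyroid hormone inside brown adipocytes, was at 8.49, 8.49, 7.75 and 6.85 in the cold and at 3.34, 4.51, 4.50, 4.62 and 5.20 at room temperature, an 11.0-fold rise (log2 3.46 ± 0.45, adjusted p = 0.0731). Both were called in all 9 fits that left out a library.

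Ucp1 itself was already among the most abundant transcripts at room temperature. Its level was 12.40, 12.41, 11.30 and 11.67 in the cold and 10.99, 11.09, 9.88, 10.86 and 11.03 at room temperature. The groups did not overlap, yet the difference of 1.18 ± 0.33 (2.26-fold) did not pass the test (adjusted p = 0.292); the adjusted p was 0.153 without cold replicate 4 and 0.178 with the kind covariate. Ebf2, a factor that commits precursors to the brown lineage, fell from a mean of 3.29 ± 0.20 (SD, n = 5) to 2.18 ± 0.55 (SD, n = 4) (adjusted p = 0.188), and was called in 3 of the 9 fits that left out a library.

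Of 19 genes of adrenergic and cAMP signalling, 1 rose and 1 fell (median -0.01); without cold replicate 4 these counts were 4 and 1. Crem, whose short form represses cAMP-induced genes, was at 2.88, 2.65, 2.32 and 2.02 in the cold and at 1.80, 1.56, 1.31, 1.47 and 1.58 at room temperature, without overlap (log2 0.93 ± 0.18, adjusted p = 0.133, called in 4 of the 9 fits that left out a library). Adra1a, an α1-adrenergic receptor, was lower in the cold by 1.08 on the log2 scale (adjusted p = 0.245, called in 1 of the 9 fits that left out a library). Adrb3, the β3-adrenergic receptor, showed the reach of cold replicate 4: at 5.71, 4.78, 4.88 and 2.03 in the cold and 4.77, 3.64, 3.40, 3.56 and 3.16 at room temperature, its first 3 cold values exceeded every room temperature value and the last was under them all (adjusted p = 0.931, and 0.134 without it).

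Adora1 and Adcy9 were among the 15 largest falls. Adora1, the Gi-coupled adenosine A1 receptor that restrains lipolysis, fell from 3.43, 2.84, 3.02, 3.10 and 3.03 at room temperature to 1.70, 1.47, 1.94 and 0.61 in the cold, 3.14-fold (log2 -1.65 ± 0.26, adjusted p = 0.089) and in all 9 fits that left out a library. Adcy9, an adenylyl cyclase, fell 2.50-fold (adjusted p = 0.163, called in 3 of the 9 such fits), with cold replicate 4 at 0.67 and the other cold libraries between 1.6 and 1.77. Klb, the co-receptor through which FGF21 acts, fell from 4.17 ± 0.15 (SD, n = 5) to 3.30 ± 0.24 (SD, n = 4), 1.82-fold (adjusted p = 0.089). Klb was chosen after its values were seen.

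Of 25 immediate early genes, which are switched on without new protein synthesis, 5 rose, 0 fell and 20 did not pass the test (limma; 16 and 0 without cold replicate 4, 8 and 0 with the kind covariate), with a median of 0.62 beside -0.03 for all genes. The orphan nuclear receptors of the NR4A family, known targets of cAMP, were all called. Nr4a3 stood at 3.51, 3.74, 3.28 and 2.69 in the cold and at 0.16, 0.45, 0.84, 0.31 and 0.83 at room temperature, 6.91-fold (adjusted p = 0.0105). Nr4a1 was at 3.83, 3.81, 4.40 and 2.32 against 1.32, 1.29, 0.89, 0.47 and 1.5 (5.64-fold, adjusted p = 0.0907). Both receptors were near the floor at room temperature and rose in every cold library, least in cold replicate 4. Nr4a2 rose 2.82-fold (adjusted p = 0.210, called in 3 of the 9 fits that left out a library).

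Atf3, a stress-induced repressor of the ATF/CREB family, was at 4.90, 5.68, 5.22 and 3.51 in the cold against 1.19, 0.83, 0.61, 0.31 and 1.27 at room temperature, 15.8-fold (adjusted p = 0.0461). Dusp1, the phosphatase that switches off MAP kinases, was at 5.63, 5.39, 5.33 and 3.81 against 3.44, 2.47, 2.26, 2.06 and 2.57, 5.57-fold (adjusted p = 0.0974); without room temperature replicate 2 its adjusted p was 0.256. Plk3, a stress-responsive kinase outside the list, rose 8.10-fold in all 9 fits that left out a library (adjusted p = 0.089). Fos, the classical early gene, was at 0.79, 0.87, 1.58 and 0.38 in the cold and at 0.58, 0.41, 0.15, 0.00 and 0.56 at room temperature, so the groups overlapped (adjusted p = 0.551).

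**Figure D3:**
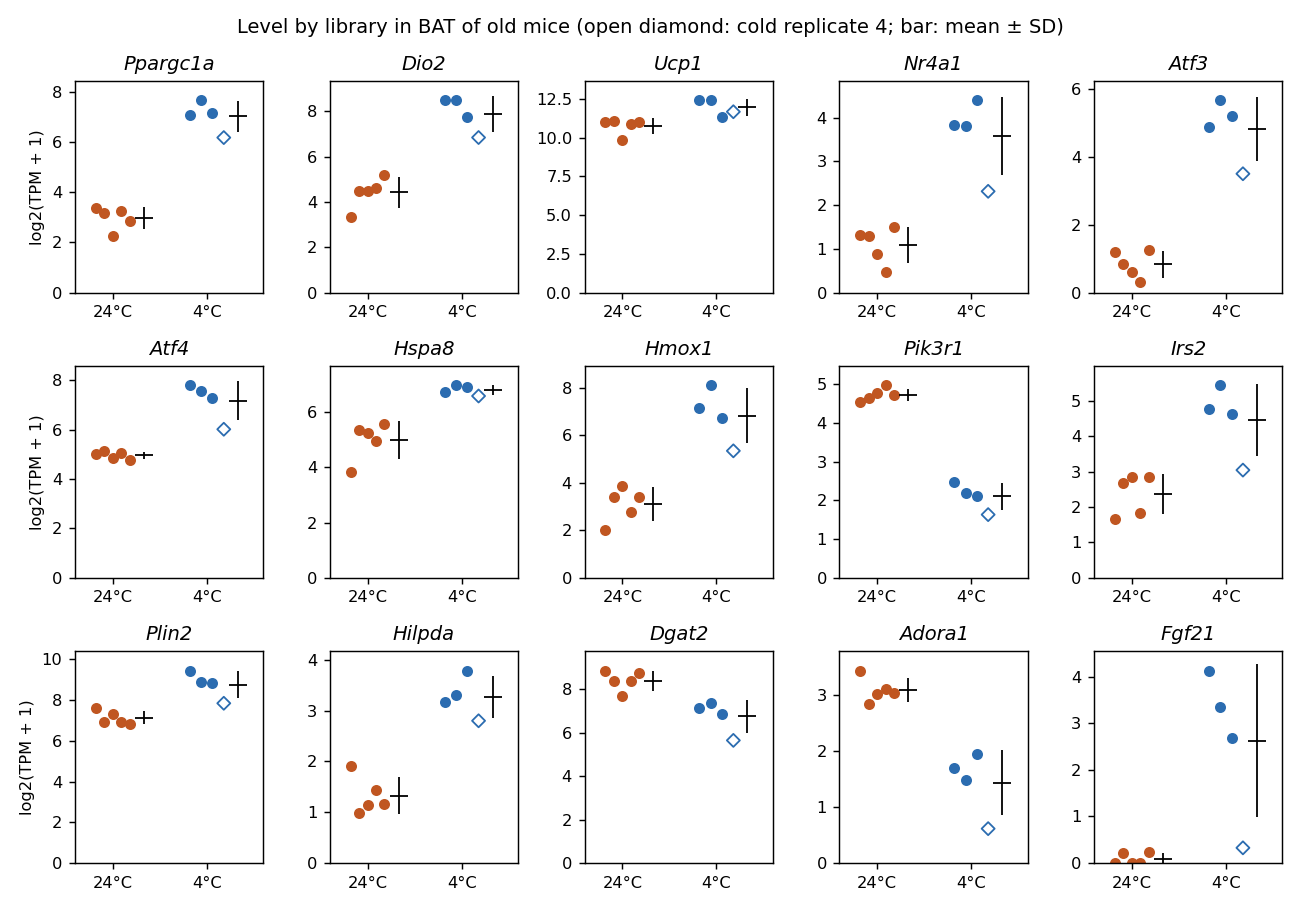
Level of 15 genes in each BAT library of old mice as log2(TPM + 1), at 24°C (orange, 5 libraries) and 4°C (blue, 4 libraries, cold replicate 4 as an open diamond), with the mean and SD as a black bar. Ppargc1a rose 16.6-fold and Pik3r1 fell 6.16-fold with no overlap, and cold replicate 4 is the lowest cold library in most panels, for Fgf21 at 0.32.

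Of 16 heat shock genes tested, 4 rose and 0 fell, with a median of 1.02, the highest of the 24 lists, beside -0.03 for all genes; 15 of the 16 log2 fold changes were positive, and without cold replicate 4, 15 genes were higher and 0 lower. Hspa8, the constitutive HSC70 that folds new proteins, was at 6.71, 6.96, 6.90 and 6.58 in the cold and at 3.81, 5.35, 5.22, 4.95 and 5.56 at room temperature, 3.50-fold (adjusted p = 0.119). Cold replicate 4 was close to the other cold libraries for this gene. Dnajb1, a co-chaperone of HSP70, rose 3.42-fold (adjusted p = 0.159), Hspb1, which encodes the small chaperone HSP27, 2.76-fold (adjusted p = 0.230), and Hspe1, the mitochondrial chaperonin HSP10, 1.59-fold (adjusted p = 0.192). The groups overlapped for Hspb1. These 3 were called in 4, 2 and 4 of the 9 fits that left out a library, and Hspa8 in 6.

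Cold replicate 4 or room temperature replicate 1 stood apart for other heat shock genes. Hsph1, which encodes the HSP110 exchange factor, was at 4.36, 4.78, 3.23 and 1.85 in the cold against 1.65, 1.20, 1.63, 1.05 and 1.19 (adjusted p = 0.252, and 0.0178 without cold replicate 4). Hspa1b, the stress-inducible HSP70, was at 1.67, 3.10, 0.76 and 0.00 in the cold and at most 0.29 at room temperature (adjusted p = 0.584). Hsp90aa1, the inducible HSP90, was at 2.68 in room temperature replicate 1 and between 4.05 and 4.26 in the other 4, with the cold libraries between 4.38 and 5.46 (adjusted p = 0.383).

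Of 18 genes of the unfolded protein and integrated stress response, 3 rose and 0 fell (median 0.29; 11 and 1 without cold replicate 4). Atf4, the factor at the centre of the integrated stress response, was at 7.79, 7.56, 7.30 and 6.02 in the cold and at 5.01, 5.13, 4.86, 5.07 and 4.79 at room temperature, 4.58-fold (log2 2.19 ± 0.33, adjusted p = 0.089). Chac1, a glutathione-degrading enzyme and ATF4 target, rose 3.74-fold (adjusted p = 0.234, called in 2 of the 9 fits that left out a library). Dnajb9, a chaperone of the endoplasmic reticulum, was at 5.95, 5.84, 5.94 and 4.44 in the cold and between 3.77 and 3.92 at room temperature (adjusted p = 0.115; called in 4 of the 9 fits that left out a library, with 1.72e-05 without cold replicate 4 and 0.293 at most). Ddit3, which encodes CHOP, did not pass the test (3.03, 2.72, 3.50 and 1.32 against 1.54 to 2.13, adjusted p = 0.611).

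Got1, Mthfd2 and Cth were chosen after their values were seen. Got1, the cytosolic aspartate aminotransferase, was at 4.79, 4.71, 3.71 and 3.68 in the cold and at 2.69, 2.48, 2.48, 2.30 and 2.30 at room temperature, 3.42-fold (adjusted p = 0.089). Mthfd2, a mitochondrial folate enzyme, rose 3.54-fold (adjusted p = 0.173, called in 3 of the 9 such fits), and Cth, which makes cysteine from cystathionine, rose 2.41-fold (adjusted p = 0.0974). Cars2, the mitochondrial cysteinyl-tRNA synthetase, was at 4.89, 5.14, 3.75 and 5.79 against 2.68, 2.26, 3.12, 2.28 and 2.47, 5.04-fold (adjusted p = 0.0907). Cars2 differed from most called genes in that cold replicate 4 was its highest library. Cold replicate 4 was the lowest cold library for 56 of 81 genes that rose and 121 of 146 that fell, beside 65.1% of all genes tested.

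Of 19 antioxidant and haem genes tested, 2 rose and 0 fell (median 0.01; 4 and 0 without cold replicate 4). Hmox1, the haem oxygenase that breaks down haem, was at 7.13, 8.09, 6.73 and 5.34 in the cold against 2.0, 3.41, 3.85, 2.79 and 3.40, 13.3-fold (log2 3.73 ± 0.57, adjusted p = 0.089). Gmpr, the purine enzyme GMP reductase, listed with them, was at 8.10, 9.30, 6.55 and 8.14 against 5.11, 5.54, 5.16, 4.64 and 5.93, 6.69-fold (adjusted p = 0.123, called in 6 of the 9 such fits). Neither gene had overlapping groups. Hccs, which attaches haem to cytochrome c, rose 2.60-fold (adjusted p = 0.135) and Hpx, the haem-binding hemopexin, 2.35-fold (adjusted p = 0.135); both were chosen after their values were seen and were called in 4 of the 9 fits that left out a library. Slc40a1, the iron exporter ferroportin, fell 3.33-fold, from 2.35, 3.09, 3.22, 3.19 and 2.82 to 1.49, 1.63, 0.81 and 0.87 (adjusted p = 0.0835).

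The clearest fall of any gene lay in insulin signalling. Pik3r1 (chr13:101680563-101768217, GRCm38, minus strand), which encodes the p85α regulatory subunit of PI 3-kinase, was at 2.47, 2.19, 2.11 and 1.63 in the cold and at 4.54, 4.65, 4.77, 4.97 and 4.71 at room temperature. The highest cold value was 2.47 and the lowest at room temperature 4.54, and the fall was 6.16-fold (log2 -2.62 ± 0.16, adjusted p = 0.00297, the smallest of all genes). Irs2, an adaptor that links the insulin receptor to PI 3-kinase, moved the other way, at 4.75, 5.43, 4.63 and 3.04 against 1.67, 2.66, 2.84, 1.84 and 2.83, 4.27-fold (adjusted p = 0.223, called in 2 of the 9 fits that left out a library). The remaining 20 of 22 genes of the list did not pass the test, and its median was 0.01; without cold replicate 4, 4 were higher and 4 lower.

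Glucose genes changed at few points. Of 22 genes of glucose uptake and glycolysis, 0 rose and 1 fell (limma; median 0.20, with 6 higher and 1 lower without cold replicate 4). Pfkfb1, an isoform of the enzyme that sets the level of fructose 2,6-bisphosphate, fell from 2.62, 2.75, 2.77, 2.81 and 2.96 to 1.53, 1.70, 1.86 and 1.19, 2.31-fold (adjusted p = 0.0505). Slc2a1, the basal glucose transporter GLUT1, was at 1.53, 1.77, 1.95 and 1.36 in the cold and between 1.14 and 1.34 at room temperature; the groups did not overlap, but the difference of 0.42 did not pass the test (adjusted p = 0.293, and 0.0583 without cold replicate 4). Slc2a4, which encodes the insulin-responsive GLUT4, had overlapping groups (difference 0.37, adjusted p = 0.901).

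In glycogen metabolism 1 of 19 genes rose and 0 fell (median 0.07; 2 and 1 without cold replicate 4). With the kind covariate 1 rose and 5 fell (median -0.16), where 9.23% of all genes fell. Ugp2, which makes the UDP-glucose that glycogen is built from, was at 9.04, 8.40, 8.0 and 7.54 in the cold and at 6.43, 5.55, 5.43, 5.99 and 5.73 at room temperature, 5.36-fold in all 9 fits that left out a library (adjusted p = 0.0748). Ppp1r3b, a glycogen-targeting phosphatase subunit, overlapped, with room temperature replicate 3 at 3.60 and the other 4 between 5.55 and 6.08 (cold 2.75 to 5.34, adjusted p = 0.649). Of 26 genes of pyruvate entry and the TCA cycle, none passed the test (limma, 1 higher and 0 lower at an unadjusted p under 0.05; median 0.00, 4 higher and 0 lower without cold replicate 4). Among them Pdk4, the kinase that closes pyruvate dehydrogenase, was at 10.31, 10.07, 10.00 and 8.25 in the cold against 8.54, 8.20, 9.04, 8.12 and 8.39 (adjusted p = 0.441, and 0.0194 without cold replicate 4).

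Lipid droplet genes moved in both directions. Of 15 genes of lipolysis and the lipid droplet, 2 rose and 1 fell (median -0.05; 6 and 1 without cold replicate 4). Hilpda, an inhibitor of the lipase ATGL, was at 3.17, 3.30, 3.79 and 2.80 in the cold and at 1.90, 0.99, 1.13, 1.44 and 1.16 at room temperature, 3.83-fold (log2 1.94 ± 0.24, adjusted p = 0.0614) and in all 9 fits that left out a library. Plin2, a droplet coat protein, was at 9.46, 8.87, 8.86 and 7.85 against 7.60, 6.93, 7.33, 6.94 and 6.85, 3.09-fold (adjusted p = 0.131; above 0.25 without cold replicate 2 or 3 or room temperature replicate 2, 4 or 5, at most 0.321). G0s2, another ATGL inhibitor, fell 3.00-fold, from 7.53, 6.88, 7.12, 7.83 and 8.50 to 6.11, 6.22, 6.44 and 5.18 (adjusted p = 0.223, called in 2 of the 9 such fits). The 2 inhibitors of the same lipase thus changed in opposite directions.

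Of 25 genes of fatty acid and triglyceride synthesis, 1 rose and 2 fell (median -0.17, and 0.23 without cold replicate 4, with 3 higher and 2 lower). With the kind covariate 1 rose and 4 fell (median -0.39), where 9.23% of all genes fell. Gyk, glycerol kinase, which recycles glycerol into triglyceride, was at 7.52, 7.49, 6.55 and 6.02 against 4.90, 5.57, 4.71, 5.36 and 5.55, 3.2-fold (adjusted p = 0.163). Dgat2, which adds the last fatty acid to triglyceride, fell 3.14-fold from 8.87, 8.37, 7.69, 8.37 and 8.73 to 7.15, 7.37, 6.85 and 5.65 (adjusted p = 0.215). Mid1ip1, a partner of acetyl-CoA carboxylase, fell 2.27-fold (adjusted p = 0.240). Each of these 3 was called in 3 of the 9 fits that left out a library. Srebf1, the lipogenic transcription factor, was at 2.72, 1.97, 3.00 and 1.0 in the cold and at 4.66, 4.08, 2.48, 4.05 and 3.77 at room temperature; its groups overlapped through room temperature replicate 3 (adjusted p = 0.377). Thrsp, a lipogenic protein, differed by -0.85 (adjusted p = 0.728).

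None of 23 genes of fatty acid uptake and oxidation and none of 20 genes of cholesterol synthesis and uptake passed the test (limma; 1 and 0 higher, 0 and 1 lower at an unadjusted p under 0.05), with medians of 0.02 and 0.22. Without cold replicate 4, 5 and 3 of them were higher and 0 lower. Under the kind covariate 0 were higher, and 0 and 2 were lower. Lpl, the lipase that releases fatty acids from circulating triglyceride, was at 8.96, 9.26, 8.69 and 7.56 in the cold against 7.34 to 8.54 (adjusted p = 0.639). Insig1, which holds back cholesterol synthesis, differed by 0.60 (adjusted p = 0.909). None of 29 nuclear-encoded genes of oxidative phosphorylation passed the test in the fit of 9 libraries, without cold replicate 4, or with the kind covariate (limma; 0 at an unadjusted p under 0.05 with 9 libraries; medians 0.07, 0.20 and -0.06).

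**Figure D4:**
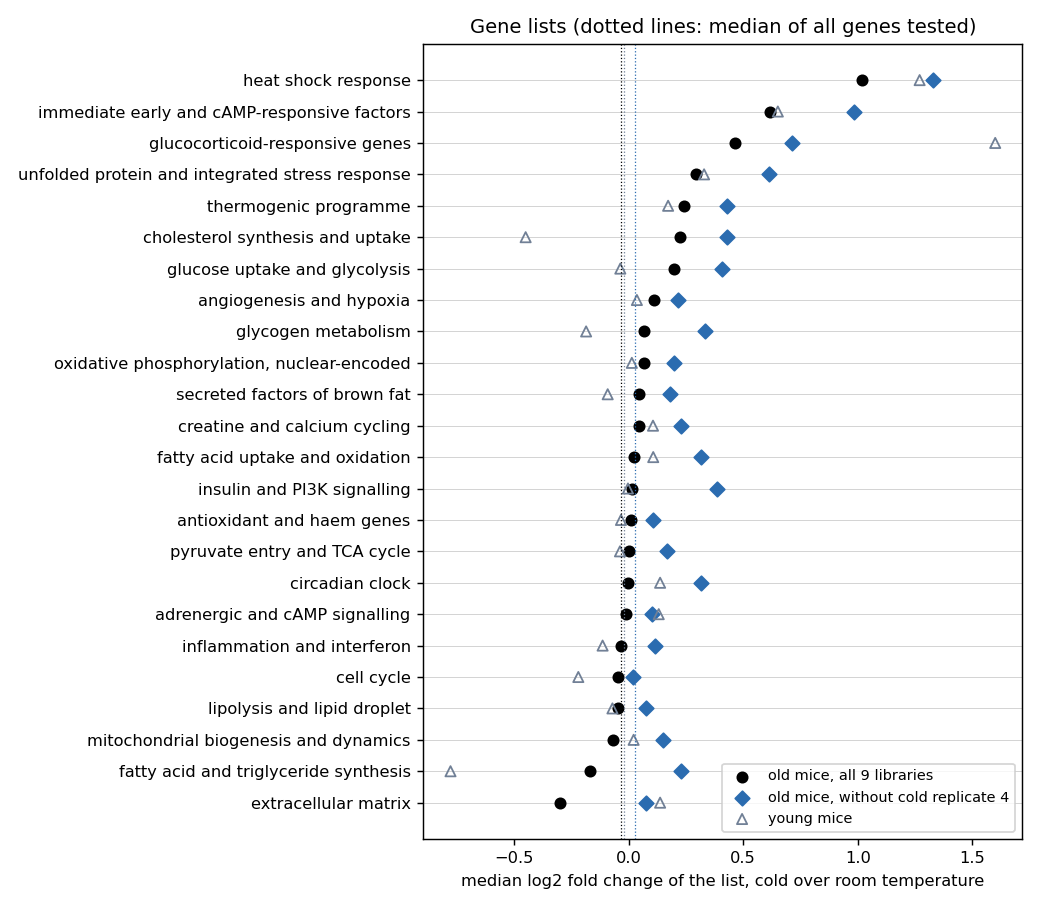
Median log2 fold change, cold over room temperature, of 24 gene lists in old mice with all 9 libraries (black circles), without cold replicate 4 (blue diamonds) and in young mice (open triangles), with the median of all genes tested as dotted lines. The heat shock list has the highest median in the old mice (1.02), and the lists of cholesterol synthesis (0.22 in old mice) and fatty acid and triglyceride synthesis (-0.17) lie furthest to the right of the young mice. The glucocorticoid-responsive list lies furthest to the left of them (0.47 in old and 1.6 in young mice).

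None of 20 clock genes passed the test (limma, 1 higher and 3 lower at an unadjusted p under 0.05; median -0.00, 4 higher and 0 lower without cold replicate 4). Adding the kind covariate gave 1 higher and 3 lower clock genes. Arntl, which encodes the clock activator BMAL1, was at 2.10, 3.25, 2.20 and 2.44 in the cold and at 1.28, 1.12, 2.26, 1.2 and 1.57 at room temperature (adjusted p = 0.339). Dbp and Per1, clock output and repressor genes, differed by -0.31 and 0.47 (adjusted p = 0.956 and 0.856). Of 15 glucocorticoid-responsive genes, 1 rose, Dusp1, and 0 fell (median 0.47; 3 and 0 without cold replicate 4). Room temperature replicate 3 was the highest of its group for several others. Fkbp5, an inhibitor of the glucocorticoid receptor, was at 0.85, 1.07, 5.52, 2.09 and 3.63 at room temperature and between 1.54 and 2.51 in the cold. Mt2, a metallothionein, was at 5.17, 6.09, 8.79, 6.18 and 6.74 against 7.11 to 8.31, and Cdkn1a, which encodes p21, at 1.47, 2.40, 5.55, 3.18 and 4.18 against 3.89 to 4.89. Tsc22d3, which encodes GILZ, was at 5.13 in room temperature replicate 3 and at 4.90 in replicate 5. The same library was the highest room temperature library for Irf4, a transcription factor that acts with PGC-1α. Irf4 stood at 1.87, 2.30, 4.25, 2.24 and 3.75 at room temperature, against 4.01 to 6.07 in the cold (adjusted p = 0.452, limma).

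Among secreted factors none of 16 passed the test (limma, 1 higher and 2 lower at an unadjusted p under 0.05; 3 higher and 0 lower without cold replicate 4). Under the kind covariate 1 was higher and 1 lower. Fgf21, a hormone that brown fat secretes in the cold, was at 4.14, 3.35, 2.69 and 0.32 in the cold and at 0.00, 0.22, 0.00, 0.00 and 0.23 at room temperature. It was high in 3 cold libraries and close to the floor in cold replicate 4, still without overlap (adjusted p = 0.264, and 0.00425 without that library). Lep, the white fat hormone leptin, was between 0.00 and 0.29 in the cold and between 0.46 and 2.20 at room temperature (adjusted p = 0.348). Of 18 angiogenesis and hypoxia genes, 2 rose and 0 fell (median 0.11; 5 and 0 without cold replicate 4): Pgf, placental growth factor, at 0.95, 1.35, 1.38 and 1.13 against 0.00, 0.14, 0.41, 0.00 and 0.26 (adjusted p = 0.0566), and Egln3, an oxygen-sensing hydroxylase, 1.62-fold (adjusted p = 0.242, called in 2 of the 9 fits that left out a library). Vegfa, the endothelial growth factor, overlapped (6.64, 6.76, 5.90 and 4.57 against 4.52 to 5.61, adjusted p = 0.762). Of 17 matrix genes 1 rose, Ctgf, a matrix-associated growth factor, 1.62-fold (adjusted p = 0.155, called in 4 of the 9 such fits), while the list's median was -0.30. The matrix counts without cold replicate 4 were 5 higher and 1 lower and the median 0.08. No gene passed the test in the lists of mitochondrial biogenesis (20 tested), creatine and calcium cycling (16), cell cycle (19) and inflammation and interferon (16) (limma; at an unadjusted p under 0.05, 4 cell cycle genes lower and 0 others). Over all genes, 989 of 15833 were lower at that threshold. With cold replicate 4 left out, 5 genes of mitochondrial biogenesis and 2 of creatine and calcium cycling were higher, 1 of the cell cycle was lower, and 0 of inflammation and interferon passed. In that fit 7.94% of all genes were higher and 2.53% lower. The kind covariate gave 4 lower genes of the cell cycle and 1 of mitochondrial biogenesis, where 9.23% of all genes were lower. It gave 0 calls for creatine and calcium cycling and for inflammation and interferon.

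The remaining large changes fell outside the lists. Cldn1, a tight junction protein, rose 5.89-fold (3.90, 4.71, 2.73 and 3.89 against 1.0, 1.64, 0.79, 0.91 and 1.91; adjusted p = 0.089). Lrrc52, which encodes an auxiliary subunit of a potassium channel, rose 4.62-fold (adjusted p = 0.134, called in 6 of the 9 fits that left out a library), and the uncharacterized genes 3930402G23Rik and 2310042D19Rik 5.98-fold and 5.47-fold (adjusted p = 0.0664 and 0.119, called in 9 and 7 of the 9). Stat5a, the factor downstream of growth hormone and prolactin receptors, fell 2.76-fold, from 2.80, 2.44, 1.78, 2.51 and 2.57 to 1.16, 0.81, 1.24 and 0.61 (adjusted p = 0.089). Mycl1, a MYC family factor, fell 3.27-fold, with room temperature values from 1.08 to 3.23 and none above 0.51 in the cold (adjusted p = 0.223, called in 2 of the 9). The other large falls, Vat1l, Plekhh3, D930015E06Rik, Marveld1, Epn2, Sspn and Uck1, lay between 2.40-fold and 2.63-fold and were called in 3 to 9 of the 9.

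The response of the old mice was next set against that of the young mice, which share no library with them. In the young mice 2668 genes were higher (16.2% of 16501 tested) and 4641 lower (28.1%). Of the genes called in the old mice, 77 of 81 higher genes (95.1%) and 137 of 146 lower genes (93.8%) moved the same way by the test in young mice, which is 2.89% and 2.95% of the young lists, and 0 were called in the opposite direction. Without cold replicate 4, the shares were 80.2% of 1255 and 87.2% of 400, which is 37.7% and 7.52% of the young lists.

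The difference in response itself was tested as an interaction of age and temperature over all 19 libraries, given as old minus young. It passed for 18 of 16957 genes (0.106%), with 10 positive and 8 negative, and for 2 at an adjusted p under 0.05. Without cold replicate 4 there were 488 positive and 58 negative, without room temperature replicate 1, 54 and 52, and the other 7 fits that left out an old library called between 3 and 20 genes. The lists of lipid synthesis, where 20 of 25 genes fell in the young mice and 2 in the old, and of cholesterol synthesis, where 12 of 20 fell in the young and 0 in the old, had 1 and 0 genes that passed the interaction, and 11 and 6 without cold replicate 4. Of all genes, 28.1% fell in the young mice and 0.922% in the old. Adding the kind covariate gave 4 and 2 lower genes of these lists in the old mice, where 9.23% of all genes fell. The median interaction of these lists was 0.47 and 0.48, beside -0.00 for all genes. The list of glucocorticoid-responsive genes had a larger median interaction, of the other sign, at -1 (-0.88 without cold replicate 4). In the young mice 13 of its 15 genes rose and 1 fell (median 1.6), and in the old mice 1 rose and 0 fell (median 0.47). None of the 15 passed the interaction, with or without cold replicate 4.

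Socs2, a feedback inhibitor of growth hormone signalling, rose in young mice from 0.61, 0.26, 0.26, 0.50 and 0.61 to 3.21, 3.01, 3.15, 3.10 and 3.12 in the cold. In old mice it was at 1.58, 1.57, 1.85 and 1.58 in the cold and at 0.47, 0.54, 1.48, 0.58 and 1.33 at room temperature, so that the rise was smaller by 1.90 ± 0.25 on the log2 scale (interaction, adjusted p = 0.00998, limma). Gfra1, a GDNF receptor subunit, was between 0.97 and 1.27 in the cold and between 0.13 and 0.34 at room temperature in young mice, but between 0.18 and 0.47 and between 0.12 and 0.52 in old mice (interaction -0.89 ± 0.12, adjusted p = 0.00998). Both differences passed without cold replicate 4 (adjusted p = 0.0220 and 0.0120) and with the kind covariate (0.0415 for both).

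Hilpda was the reverse case. In young mice it was at 1.34, 2.25, 1.63, 1.77 and 1.57 in the cold and at 1.53, 1.74, 1.46, 1.66 and 1.5 at room temperature, with no change that passed the test (adjusted p = 0.578), while it rose 3.83-fold in old mice (interaction 1.80 ± 0.29, adjusted p = 0.0608). Mid1ip1 fell in both ages, by 2.67 on the log2 scale in young and by 1.18 in old mice, from room temperature levels of 3.64 to 4.06 in the young and 1.94 to 2.81 in the old (interaction 1.48, adjusted p = 0.243). The cold levels were close, 0.95 to 1.38 in young and 0.53 to 1.91 in old mice. Acot5, a peroxisomal acyl-CoA thioesterase, rose by 1.88 in young and by 0.78 in old mice (called in 5 of the 9 fits that left out an old library; interaction -1.10, adjusted p = 0.243). Chrna2, a nicotinic acetylcholine receptor subunit, was lower in the cold in old mice (0.43, 0.27, 0.61 and 0.18 against 1.04, 1.16, 0.86, 0.85 and 1.02, adjusted p = 0.0974), where young mice differed by 0.10 (adjusted p = 0.536; interaction -0.71, adjusted p = 0.243). Dusp14, Ccdc138, Ankrd33b and A530016L24Rik, the others of the 10 smallest p-values, were not called in the old mice alone (limma, adjusted p from 0.409 to 0.887).

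**Figure D5:**
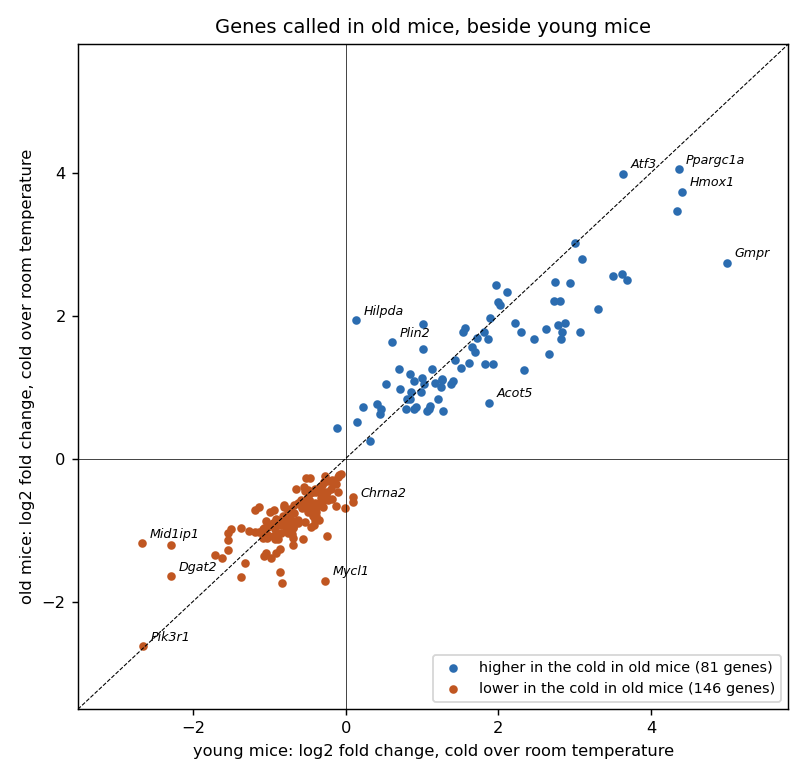
Log2 fold change, cold over room temperature, of the 227 genes called in old mice (81 higher in blue, 146 lower in orange), with young mice on the horizontal and old mice on the vertical axis and the dashed line where both are equal. Most genes lie near the dashed line on the same side of 0 in both ages, and Hilpda stands apart above it at 1.94 in old and 0.14 in young mice.

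Markers of the cells that dissected BAT can hold were measured in the same libraries. No marker of the 12 cell types passed the test in the 9 libraries (limma, 3 higher and 1 lower at an unadjusted p under 0.05). Of all 15833 genes, 389 were higher and 989 lower at that threshold. When cold replicate 4 was left out, 2 of 6 endothelial markers (list median 0.53), 2 of 7 brown adipocyte markers and 1 of 6 T cell markers were higher, and none of the other 9 lists had a call. In that fit 7.94% of all genes were higher. The kind covariate gave 1 endothelial and 1 brown adipocyte marker higher and 1 white adipocyte marker lower, where 1.36% of all genes were higher and 9.23% lower. With the covariate and without cold replicate 4, 2 endothelial markers were higher, and 0 brown adipocyte (median -0.05) and 0 T cell markers were called. Summed brown adipocyte markers, 7 of 8 in the table, lay between 10580 and 17840 TPM in the cold and between 9759 and 13290 TPM at room temperature. Of 6 neutrophil markers only Mpo was at 0 in all 9 libraries. Across cold libraries the neutrophil list reached a total of 0.98 to 5.745 TPM, and across room temperature libraries 1.36 to 16.5 TPM. Skeletal muscle markers summed to 265.7, 1.35, 179.6 and 6.27 TPM in the cold and to 0.73, 9.98, 8.18, 186.5 and 12.1 TPM at room temperature, high in some libraries of each group. All 10 had a positive log2 fold change (median 1.09, and 1.71 without cold replicate 4), and 0 passed the test in either fit. Endothelial markers summed to between 21.6 (cold replicate 4) and 75.1 TPM in the cold and between 26.7 and 47.9 TPM at room temperature, and those of macrophages to between 47.9 and 150.2 and between 68.3 and 126.2 TPM. Sums for fibroblasts, smooth muscle, Schwann cells, white adipocytes, neutrophils, T cells, B cells and red cells also overlapped between the groups. Their part in the changes above was not tested, and in these bulk libraries fewer cells of a type and less RNA per cell cannot be told apart.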

How the data were processed

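RNA of BAT was sequenced on libraries depleted of ribosomal RNA (50 base, single-end reads per the labels). Alignment by the authors used Rsubread, and the deposited values are log2 TPM, normalized with edgeR and limma 3.20.9 in R 3.2.2 per the labels and methods, read here as log2(TPM + 1). A human reference is named in the methods although the genes are mouse, so the build is not settled. TPM keep no read totals, so depth is known only relative to the deepest library, and log2 fold changes understate the change of low genes.

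Groups came from the sample titles. Old cold and old room temperature libraries were compared with limma 3.58.1 in R 4.3.3 (two-sided moderated tests, Benjamini-Hochberg adjustment, genes at 0 in all libraries fitted left out, called at an adjusted p under 0.25), tested on simulated data. The interaction used all 19 libraries; distances used exact permutation with scipy and numpy. Named were genes at an adjusted p under 0.05, the 15 largest rises and falls among called genes without overlap, members of 24 lists, and the 10 smallest interaction p-values; others are said to be chosen later. The comparison, lists and genes were chosen with earlier results of these data known. Gene coordinates come from GENCODE M21. Replicate numbers were not taken to pair the libraries. Alternatives were the kind of library as covariate, its subsets, each library left out, a replicate block, a filter at 1 TPM, a pseudocount of 0.1, median centring, quantile normalization, another prior, library weights, all libraries in a fit and a threshold of 0.05. Not analysed here are list members that the table does not list, and 1 list member is not reported here by name.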

Additional observations from a re-analysis of the deposited data

Results flagged for a closer look

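Of 180 groups of named genes examined, 12 held a library whose gap to its nearest neighbour exceeded Dixon's critical share of the group's range, where chance gives about 1 in 20. Cold replicate 4 was the lowest of the cold group with a gap of 0.844 of the range for Adcy9, 0.833 for Dusp1, 0.928 for Dnajb9, 0.877 for Hspb1 and 0.847 for Pdk4. Room temperature replicate 3 was the lowest of its group with 0.808 for Ucp1, 0.774 for Ebf2, 0.789 for Ppp1r3b, 0.744 for Insig1 and 0.773 for Acot5. The gap was 0.865 for Hsp90aa1, lowest in room temperature replicate 1, and 0.971 for Socs2, highest in cold replicate 3.

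At an adjusted p under 0.25 the cold response differed between the ages by the interaction test (old minus young, log2) for Hilpda (1.8), Mid1ip1 (1.48), Dusp14 (0.935) and A530016L24Rik (2.48), which were more positive in old mice. It was more negative in old mice for Socs2 (-1.9), Gfra1 (-0.893), Acot5 (-1.1), Ccdc138 (-0.767), Ankrd33b (-0.707) and Chrna2 (-0.713). The adjusted p (limma) was 0.00998 for Socs2 and Gfra1, 0.0608 for Hilpda and 0.243, close to the threshold, for the others. Leaving out cold replicate 3 or room temperature replicate 2, 4 or 5 left 3 or 4 interaction calls over all genes. Fgf21 and Adrb3, with cold replicate 4 far under the other cold libraries, did not pass Dixon's limit.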

How the results depend on the processing

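Against 81 higher and 146 lower genes, the counts were 216 and 1462 with library kind as covariate, 757 and 640 with that covariate and without cold replicate 4 (chosen after seeing the data), 135 and 2266 in libraries with high Gm20594, and 0 and 0 in the 3 with low Gm20594 (limma, chosen after seeing the data; 1709 and 789 at an unadjusted p under 0.05). They were 165 and 191 with a filter at 1 TPM, 985 and 523 with median centring, 1379 and 1450 with quantile normalization, 140 and 193 with a trended and robust prior, 2979 and 1254 with library weights, 618 and 1413 with all 19 libraries in the fit, and 3 and 1 at an adjusted p under 0.05. Leaving out each library gave 32 to 1255 higher and 38 to 400 lower genes, both highest without cold replicate 4. The 18 interaction genes became 9 with the covariate, 38 with the filter, 298 with centring, 2 at 0.05 and 3 to 546 with a library left out. The pseudo-F of 1.65 was 2.07 with centring (exact p = 0.0397), and 1.33 to 2.76 with a library left out. The cause of these differences was not tested.

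Of the 58 named genes called, 58 kept their call with the covariate and 58 without cold replicate 4. Without room temperature replicates 1 to 5 in turn, 31, 27, 57, 27 and 31 kept it, and without cold replicates 1 to 3, 49, 34 and 33. Only 2 of the 58 kept their call with the replicate number as a block, and 56 did not. Fkbp5 (-0.61) reversed to 0.22 with the covariate and without cold replicate 4, and to 0.11 without room temperature replicate 3 (-1.06 to 0.11 over the fits that only left out a library). The Gfra1 log2 fold change (0.02) reversed to -0.0512 with the covariate and without cold replicate 4, to -0.0355 without cold replicate 4 and to -0.01629 without room temperature replicate 4 (-0.0355 to 0.08344 over the fits that only left out a library). Neither gene passed the test in any of these fits.

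With the replicate number as a block, 3 genes were higher and 1 lower, and the pseudo-F labelings within numbers gave an exact p of 0.0625, the smallest possible. Same-numbered libraries correlated by 0.37, -0.02, 0.22 and 0.06, and 2 of 4 correlated best with their own number, so the numbers were not taken to pair the libraries.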
